A study of Homo sapiens with 12 samples.

Results

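Protein kinase A (PKA) is a family of genes in which 9 members were followed here: the kinase inhibitor (PKI) genes PKIA, PKIB and PKIG, the catalytic subunit genes PRKACA and PRKACB, and the regulatory subunit genes PRKAR1A, PRKAR1B, PRKAR2A and PRKAR2B. They are 9 of the 43769 genes in the count table, found by gene symbol, and all 9 passed the filter on low counts that left 15828 genes for testing. PKIA was selected on its measured fold change, as the gene with the most stable decrease with the doxycycline label in these same libraries, so its values with and without doxycycline are a description and carry no test. The other 8 were taken by name as the members of its family, with results of these data known.

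The libraries are bulk RNA sequencing of SK-N-DZ, a MYCN amplified human neuroblastoma cell line with wild-type ARID1A, carried as a clonal line with a doxycycline-inducible short hairpin RNA against ARID1A, a subunit of the SWI/SNF chromatin remodeling complex. There are 4 groups of 3 replicates: untreated control (C), doxycycline alone (D), IFNγ alone (I) and doxycycline with IFNγ (DI). The labels give C and I the genotype WT and D and DI the genotype shARID1A, with doxycycline given over 4 days and IFNγ over 24 h. The study used the design to ask how loss of ARID1A changes the response to IFNγ. The line is 1 clone, and no library here received doxycycline without the hairpin, so the drug and the hairpin cannot be told apart. The labels do not say whether replicates came from separate cultures, so p-values measure only the spread between these libraries.

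PKA is the main sensor of cyclic AMP in most cells. In the resting enzyme a dimer of regulatory subunits holds catalytic subunits inactive, and cyclic AMP, made by adenylyl cyclases downstream of G protein-coupled receptors and broken down by phosphodiesterases, binds the regulatory subunits and frees the catalytic ones. PKI proteins bind and block free catalytic subunits and carry them out of the nucleus. Both PKI proteins and regulatory subunits block the kinase by placing a stretch that resembles a substrate in its active site. In PKI and in the type I regulatory subunits this stretch lacks the residue to be phosphorylated, and in type II regulatory subunits the residue is present. In cells of the sympathoadrenal lineage, from which neuroblastoma arises, cyclic AMP signaling is known for its part in neuronal differentiation and in catecholamine synthesis.

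The coding sequences around this inhibitory stretch are shown because they are what PKI genes and regulatory subunit genes have in common and the catalytic subunit genes lack. Each line holds 30 bases of the GENCODE 29 coding sequence on GRCh38, read 5′ to 3′ on the strand of the gene, with the 4 codons of the stretch that meets the active site in capitals. All of them lie in coding exons. Those of PRKAR2A and PRKAR2B cross an exon junction, and their coordinates run from the first to the last base with an intron in between.
PKIB, chr6:122717861-122717890, plus strand: agggcaggcCGCCGGAATGCCttaccagac
PKIG, chr20:44614602-44614631, plus strand: cggacaggcCGTCGGAATGCGgtccctgac
PRKAR1A, chr17:68522855-68522884, plus strand: ggtaggaggCGACGAGGTGCTatcagcgct
PRKAR1B, chr7:680598-680627, minus strand: gcccgccgcCGGCGAGGAGGCgtgagtgcc
PRKAR2A, chr3:48794042-48807670, minus strand: agatttaatAGACGAGTATCAgtctgtgct
PRKAR2B, chr7:107070295-107121959, plus strand: cgattcacaAGGCGTGCCTCAgtatgtgca
The site of PKIA is not shown. The binding motif of CREB, the transcription factor that PKA phosphorylates, is the palindrome TGACGTCA, which reads the same on both strands. It was searched in promoter windows of RefSeq (GRCh38.p14), from 250 bases before to 50 bases after each start, which hold 8 of the 9 members. PRKAR1A was the 1 member with a match, in 2 of its 5 windows, beginning 49 bases before one start and 2 bases after another, at chr17:68512370-68512399 on the plus strand, where the motif is in capitals: gcgaggcgcatTGACGTCAgtagccgaacg. The motif was found in 1.85% of all 35116 windows and for 2.25% of the 27305 genes in that table.

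Counts per library ranged from 16469832 to 21790869. IRF1, an IFNγ-induced transcription factor, was 7.58 log2 higher in I than in C (SE 0.18, adjusted p = 2.75e-09 by edgeR). ARID1A was not clearly lower in D than in C (log2 fold change −0.09, SE 0.11, adjusted p = 0.788). In DI it was −0.44 against I (SE 0.11, adjusted p = 0.115, 0.0155 by DESeq2 and 0.0111 with the replicate number as a block), so the doxycycline labels are used here as labels. All 12 adrenergic neuroblastoma markers had a mean of at least 10 CPM, the library-scaled count of a gene. Their summed level ran from 5354 to 6424 CPM over the C libraries and 5359 to 6624 CPM over the I libraries, against 4936 to 5653 CPM for D and 4688 to 6202 CPM for DI. The marker with the lowest mean was TH, at 18.55 CPM. It had only 0.695 to 7.04 CPM in the libraries with doxycycline, and 3.13 and 2.18 CPM in replicate 2 of C and I. The 5 immune cell and 5 epithelial cell markers were all under 1 CPM, and of the 5 fibroblast markers DCN alone was.

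In untreated cells 3 of the 4 regulatory subunit genes stood highest per kilobase of exon. Levels are given here as FPKM, that is, CPM scaled by TMM and divided by the length of all annotated exons in kilobases, as the mean of 3 C libraries. PRKAR1A stood first at 29.3 FPKM ± 3.12 (SD, n = 3), followed by PRKAR2B at 26.1 ± 8.13 and PRKAR1B at 21.03 ± 3.12. PKIA at 15.9 ± 0.846 and PRKACA at 15.2 ± 1.60 came next, then PRKAR2A at 9.37 ± 0.534, PKIG at 6.14 ± 0.844, PRKACB at 4.81 ± 0.955 and PKIB at 1.5 ± 0.949. The C libraries of PRKAR1A and PRKAR2B overlapped, as did those of PRKAR2B and PRKAR1B, of PKIA and PRKACA, and of PKIG and PRKACB, so these neighbors in the order did not differ beyond their spread. PKIA was thus the most abundant PKI mRNA of the untreated line, with 67.8% ± 3.97 (SD, n = 3) of the summed PKI level. The order depends on the gene length used: with the longest annotated transcript, 3 of the 9 members kept their position, and PRKACA (29.97 FPKM) stood well above PKIA (16.1). PRKACA was then level with PRKAR2B (30.1 FPKM), with overlapping C libraries, so the regulatory genes no longer stood apart from it.

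PKIA (ENSG00000171033, chromosome 8, 78516139 to 78605267, plus strand), which encodes the alpha isoform of PKI, was about 5-fold less abundant in the libraries with doxycycline than in those without. Replicates 1 to 3 had 66.7, 63.6 and 70.7 CPM in C, and 14.6, 11.9 and 10.1 CPM in D. With IFNγ they had 70.9, 61.1 and 61.8 CPM in I, and 13.6, 15.5 and 9.82 CPM in DI. The highest library with doxycycline was far under the lowest without it, and the 2 arms gave nearly the same values. As raw counts these are between 1085 and 1432 reads per library without doxycycline and between 175 and 306 with it, so counting error is small beside the change. The log2 fold change was −2.45 (SE 0.18) in D vs C, a 5.48-fold reduction, and −2.32 (SE 0.18) in DI vs I, a 4.98-fold reduction. With single libraries left out it ran from −2.60 to −2.34 and from −2.47 to −2.15. These are the values by which the gene was chosen: it had the smallest p of the 15828 tested genes in both comparisons, and counted from the lowest fold change it stood at position 47 in D vs C and at position 24 with IFNγ. Whether every cell or a share of the cells had less PKIA mRNA cannot be told apart in bulk RNA, for this gene or for those that follow.

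**Figure D1:**
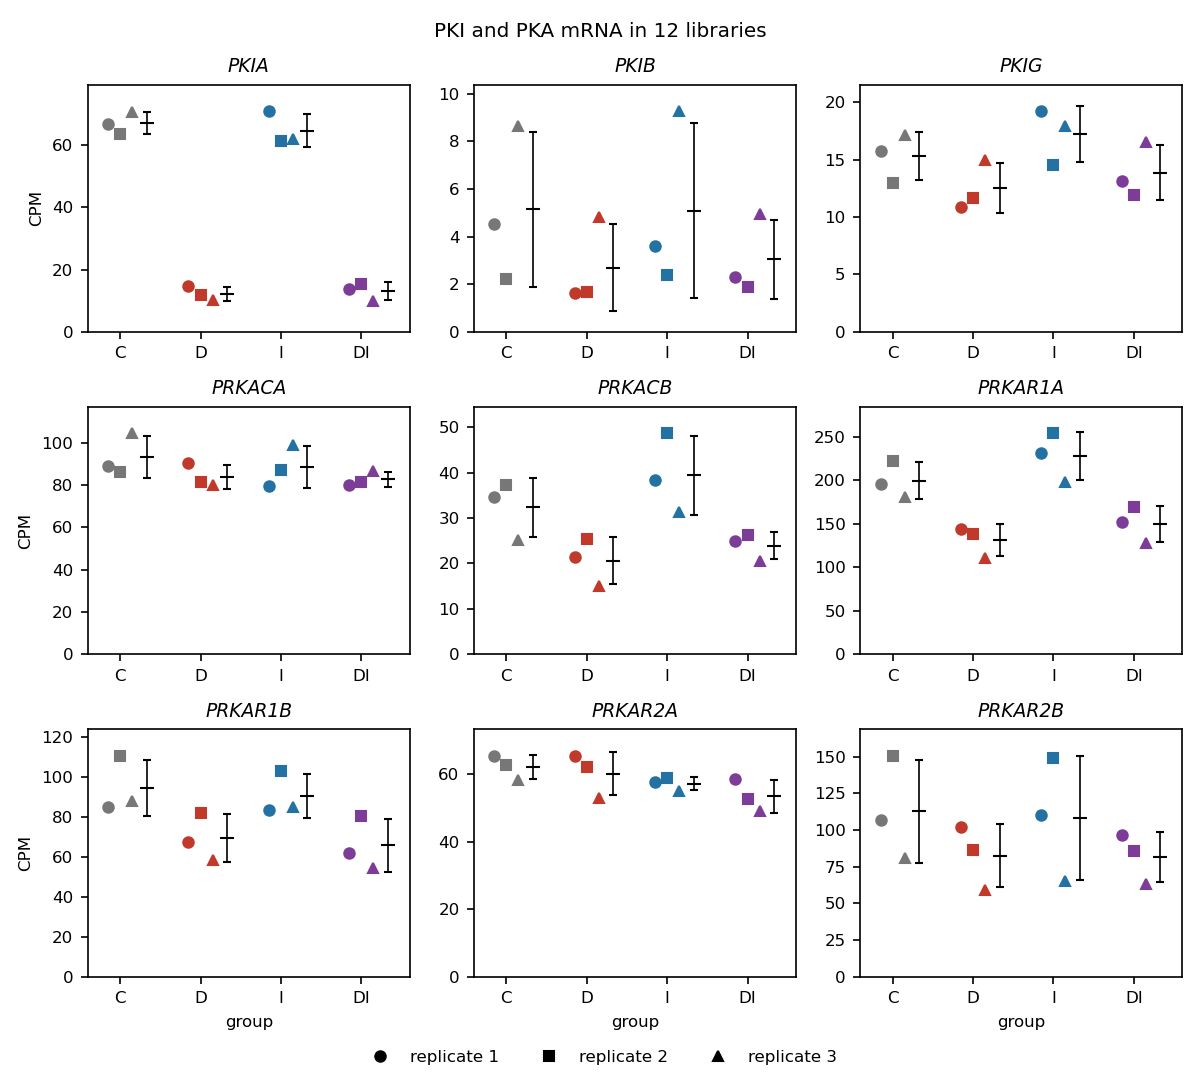
Normalised level (CPM, TMM-scaled, linear axes from 0) of the 9 genes in each of the 12 libraries by group, with symbols for the replicate number and a bar for the mean ± SD of 3 libraries. PKIA lay between 9.82 and 15.5 CPM in the 6 libraries with doxycycline and between 61.1 and 70.9 CPM in the others, while PKIB was highest in replicate 3 of every group.

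The other PKI genes were measured at lower levels and their groups overlapped. PKIB (ENSG00000135549, chromosome 6, 122471917 to 122726373), the beta isoform, had 4.55, 2.23 and 8.66 CPM in C against 1.62, 1.66 and 4.81 CPM in D, and with IFNγ 3.61, 2.40 and 9.28 CPM in I against 2.31, 1.90 and 4.95 CPM in DI. Replicate 3 was the highest library of each group, and the spread between replicate numbers exceeded the difference between groups. Over both arms, that is, D and DI against C and I (called the doxycycline average below), the log2 fold change of PKIB was −0.83 (SE 0.47, adjusted p = 0.326 by edgeR's quasi-likelihood test), and its adjusted p was 0.00492 with the replicate number as a block. Each of the 6 libraries with doxycycline was lower than the library of the same number and arm without it, by 0.34 to 1.49 on the log2 scale. This was so for 14.9% of all tested genes. The 454 exon bases that PKIB shares with Z99129.3 on the same strand are 13.2% of its exons.
PKIG (ENSG00000168734, chromosome 20, 44531785 to 44624247), the gamma isoform, had 15.8, 13.0 and 17.1 CPM in C and 10.9, 11.7 and 15 in D. It had 19.2, 14.6 and 17.98 CPM in I and 13.2, 11.9 and 16.5 in DI. Its doxycycline average was −0.30 (SE 0.13, adjusted p = 0.1995), and 0.0255 was the adjusted p with the block. The level was lower in 6 of 6 same-number pairs, as was so for 14.9% of all tested genes. All PKI genes thus lay on the same side, PKIG with the smallest difference, but PKIA was chosen for its decrease.

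Of the catalytic subunit genes, PRKACB changed and PRKACA did not pass the test. PRKACB (ENSG00000142875, chromosome 1, 84078062 to 84238498), which encodes the beta catalytic subunit, had 34.5, 37.4 and 25.1 CPM in C and 21.5, 25.5 and 15 in D. In the IFNγ arm it had 38.3, 48.7 and 31.3 CPM in I and 25.0, 26.2 and 20.5 in DI. The DI libraries lay below all I libraries, as was so for 8.41% of tested genes, and 1 D library lay above the lowest C library. Its doxycycline average fell by 0.68 on the log2 scale (SE 0.16, adjusted p = 0.0306 by edgeR), and the 6 same-number differences were close to each other, from −0.89 to −0.55. This call is a narrow one: the adjusted p ran from 0.0266 to 0.0736 with single libraries left out, and was above the threshold of 0.05 without C replicate 1 or 2, D replicate 1 or 3, I replicate 1 or 2, or DI replicate 1 or 3. With the replicate block it was 0.000112.
PRKACA (ENSG00000072062, chromosome 19, 14091688 to 14118084), which encodes the alpha catalytic subunit, had 89.1, 85.9 and 104.3 CPM in C against 90.4, 81.3 and 80.1 CPM in D, and with IFNγ 79.4, 86.9 and 98.9 CPM in I against 79.9, 81.3 and 86.7 CPM in DI. These groups overlapped in both arms. The doxycycline average was −0.12 (SE 0.08, adjusted p = 0.375, and 0.188 with the block), lower in 4 of 6 same-number pairs. PRKACB made up 24.2% ± 5.48 (SD, n = 3) of the summed catalytic level in C and 18.2% ± 3.83 in D, and 28.9% ± 5.88 in I and 20.9% ± 2.74 in DI.

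Among regulatory subunit genes the type I genes were lower in both arms with no overlap between libraries. PRKAR1A (ENSG00000108946, chromosome 17, 68511780 to 68551319), which encodes the type I alpha subunit found in most tissues, had 196, 223 and 180.4 CPM in C and 144, 139 and 110.2 in D. It had 231, 254 and 198 CPM in I and 152, 169.7 and 128 in DI. Each of the 6 libraries with doxycycline lay below each of the 6 without, as was so in the lower direction for 3.09% of all tested genes. The doxycycline average fell by 0.61 on the log2 scale (SE 0.10, adjusted p = 0.00807 by edgeR), with the same size in both arms, −0.61 in D vs C (SE 0.15, adjusted p = 0.0820) and −0.61 in DI vs I (SE 0.15, adjusted p = 0.109). With single libraries left out the adjusted p of the average stayed between 0.00811 and 0.0226, and with the block it was 2.65e-05.
PRKAR1B (ENSG00000188191, chromosome 7, 549197 to 727650, minus strand), the type I beta subunit that is known mainly from neural tissue, had 85.1, 110.5 and 87.7 CPM in C and 67.4, 82.0 and 58.5 in D. It had 83.2, 103 and 84.9 CPM in I and 62.1, 80.3 and 54.6 in DI. Here too the 6 libraries with doxycycline lay below the 6 without. The log2 fold change over both arms was −0.45 (SE 0.12), with an adjusted p of 0.0505 by edgeR, 0.0127 by DESeq2 and 0.000224 with the block, and the edgeR value was under the threshold without D replicate 2 (0.0384) or DI replicate 2 (0.0234). PRKAR1B shares 383 exon bases, 8.53% of its exons, with DNAAF5 on the opposite strand (mean 71.1 CPM), and the strand setting of the counting is not given in the sources used here.

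The type II regulatory subunit genes did not pass the test. PRKAR2A (ENSG00000114302, chromosome 3, 48744597 to 48847846), the type II alpha subunit, had the doxycycline average closest to 0 of the family, with 65.5, 62.7 and 58.5 CPM in C against 65.4, 62.4 and 53.0 CPM in D, and with IFNγ 57.7, 58.8 and 55.2 CPM in I against 58.8, 52.6 and 49.1 CPM in DI. Its doxycycline average was −0.07 (SE 0.08, adjusted p = 0.621, and 0.285 with the block), and with library size alone as the scaling it was 0.02, on the other side of 0. PRKAR2B (ENSG00000005249, chromosome 7, 107044649 to 107161811), the type II beta subunit of neural and endocrine cells, had 107, 150.5 and 81.1 CPM in C against 102, 86.2 and 59.3 CPM in D, and with IFNγ 110.4, 149 and 65.0 CPM in I against 96.4, 85.4 and 63.3 CPM in DI. Replicates differed by more than the group means did. Its doxycycline average was −0.43 (SE 0.23, adjusted p = 0.290), and 0.0188 was the adjusted p with the block.

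**Figure D2:**
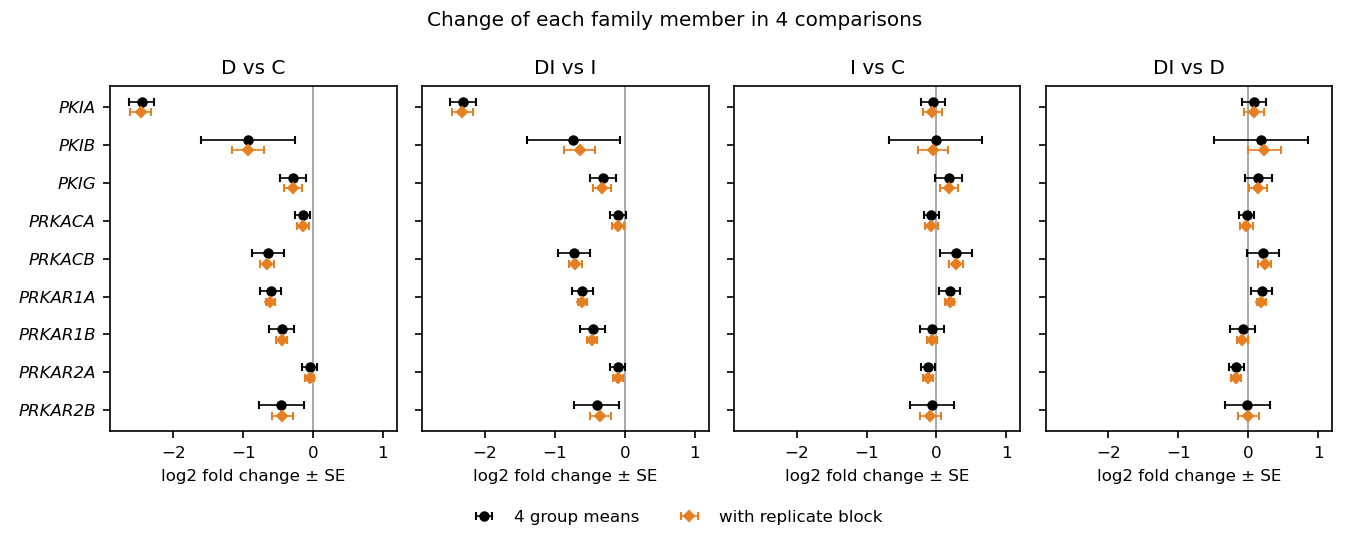
Log2 fold change ± SE of the 9 genes in 4 comparisons, from edgeR models of 12 libraries with 4 group means (black circles) or with the replicate number added as a block (orange diamonds). PKIA stands at −2.45 and −2.32 in the doxycycline comparisons and near 0 in the IFNγ comparisons, and the block narrows the error bars most for PKIB and PRKAR2B.

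Apart from PKIA, 2 of the 8 members (PRKAR1A and PRKACB) were called lower and 0 higher in the doxycycline average at an adjusted p under 0.05, where 4.02% of all tested genes were called lower and 3.66% higher. The replicate numbers pair the libraries, and with the number as a block 6 of the 8 were called, all lower, where 15.8% of tested genes were called lower. PKIB, PKIG, PRKAR1B and PRKAR2B were those added. Within single arms 0 of the 8 were called by edgeR in D vs C, where 0.733% of tested genes were called lower, and 0 in DI vs I, where 0.569% were. PRKACB, PRKAR1A and PRKAR1B had an unadjusted p under 0.05 in each arm, as 14.2% of tested genes had in D vs C, and 12.2% had in the arm with IFNγ. DESeq2 called PRKAR1A in each arm, where it called 4.75% and 3.13% of the genes it tested, and it called PRKAR1A, PRKAR1B and PRKACB in the doxycycline average, where it called 12.7%. The block called 4 of the 8 in D vs C (PKIB, PRKACB, PRKAR1A and PRKAR1B), with 7.67% of tested genes lower, and 3 in DI vs I (PRKACB, PRKAR1A and PRKAR1B), with 6.62%. Without replicate 1 of every group, 0 of the 8 were called in the doxycycline average. The median log2 fold change of the 9 members in that average was −0.45, against −0.0019 for all tested genes. This median includes PKIA, which was chosen for its decrease, and is a description. PKIB, PKIG, PRKACB, PRKAR1A, PRKAR1B and PRKAR2B were lower in 6 of 6 same-number pairs, as 14.9% of all tested genes were. PKIA was too, but it was selected for that.

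Added up by role, the PKI genes had a lower level with the doxycycline label, but PKIA is the largest part of this sum, so the sum rests on the gene chosen for its decrease and is a description. Summed PKI mRNA was 23.5 FPKM ± 2.61 (SD, n = 3) in C and 8.70 ± 0.974 in D, and 23.7 ± 2.38 in I and 9.52 ± 0.761 in DI. PKIA then made up 33.8% ± 8.68 of it in D and 32.8% ± 9.44 in DI, and PKIG was the most abundant PKI mRNA there. The summed catalytic level was 19.96 FPKM ± 0.652 in C against 16.7 ± 1.35 in D, and 20.2 ± 1.44 in I against 17.0 ± 0.246 in DI. Per catalytic mRNA there were 1.18 PKI mRNAs in C and 1.18 in I, and 0.525 in D and 0.560 in DI. This ratio depends on the gene length used, and with the longest annotated transcript it was 0.780 in C, 0.408 in D, 0.805 for I and 0.439 for DI. Summed regulatory mRNA was 85.8 FPKM ± 14.3 in C against 62.8 ± 10.4 in D, and 87.2 ± 16.1 in I against 63.5 ± 9.32 in DI. The regulatory to catalytic ratio was 4.32 ± 0.829 in C and 3.74 ± 0.354 in D, and 4.31 ± 0.762 in I and 3.74 ± 0.568 in DI. It was lower with doxycycline in 6 of 6 same-number pairs, by 0.197 on the log2 scale on average, with single pairs from −0.38 to −0.0916. That mean is less than the SD of 0.229 within groups, and more than the SD of 0.105 between the differences of same-number pairs.

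**Figure D3:**
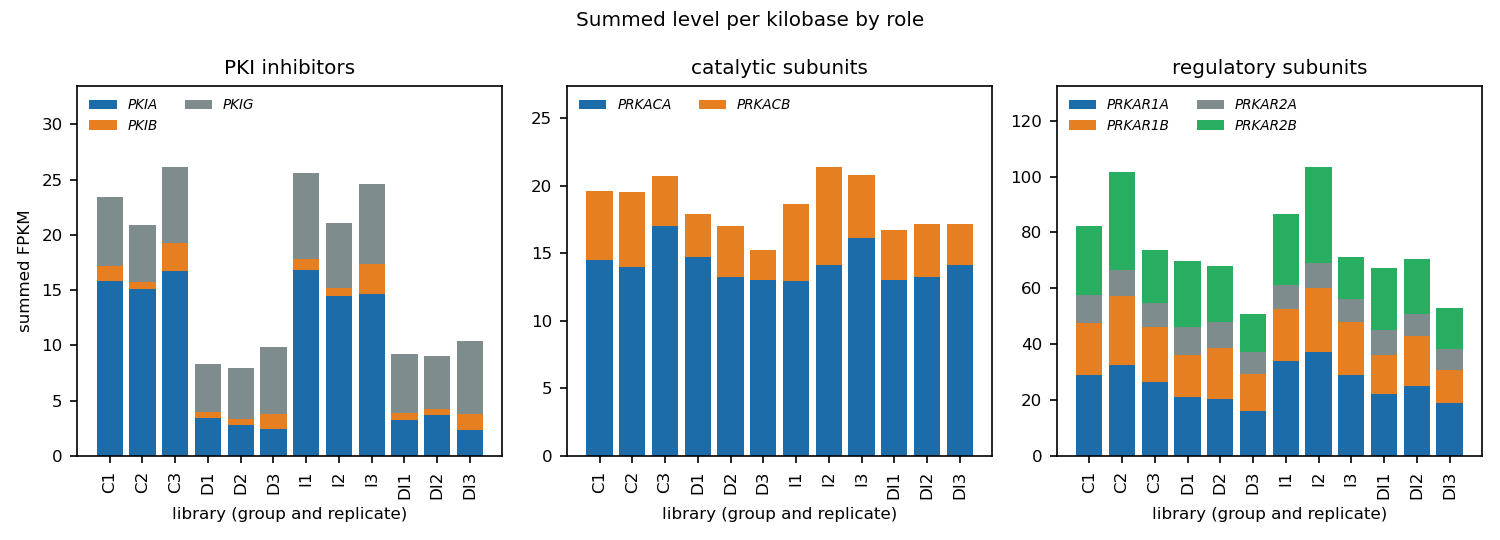
Summed level (FPKM, linear axes from 0) of the PKI, catalytic and regulatory genes in each library, stacked by gene. The PKI sum lay between 7.99 and 10.4 FPKM with doxycycline and between 20.9 and 26.2 without, and the regulatory sum was lowest in replicate 3 of each group.

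Several members other than PKIA deviated from the group mean in the same direction in every group for a given replicate number. Replicate 3 was the highest for PKIB in all 4 groups, by 0.98 on average above the group mean on the log2 scale. It was also above the group mean in all 4 groups for PKIG, by 0.19, although replicate 1 was higher in I. Replicate 3 was below the group mean in all 4 groups for PRKAR2B (−0.47), PRKACB (−0.32), PRKAR1A (−0.20), PRKAR1B (−0.16) and PRKAR2A (−0.11). Replicate 2 was above the group mean in all 4 groups for PRKAR2B (0.30), PRKACB (0.26), PRKAR1B (0.25) and PRKAR1A (0.15), and below it for PKIB (−0.72) and PKIG (−0.19). PKIA did not show this, with a mean of 0.12 for replicate 1, 0.03 for replicate 2 and −0.15 for replicate 3. Its mean for replicate 3 was close to that of PRKAR1B. PKIA was chosen for a stable decrease over these libraries, so its values here are a description. What the replicate number stands for is not given in the labels.

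IFNγ was compared in I vs C and in DI vs D, which share the C and D libraries with the comparisons above. By edgeR 0 of the 8 members other than PKIA were called in I vs C, where 2.21% of all tested genes were called, and 0 in DI vs D, where 1.72% were. None of the 8 had an unadjusted p under 0.05 in either, and 0 were called by DESeq2 or with the block. PKIA was at −0.05 (SE 0.17) in I vs C and 0.08 (SE 0.18) in DI vs D. These values are given without a test, because PKIA was chosen for a decrease that was stable over these libraries. The largest differences in I vs C were those of PRKACB (0.28, SE 0.23), PRKAR1A (0.19, SE 0.15) and PKIG (0.17, SE 0.19), with −0.12 (SE 0.11) for PRKAR2A at the other end. PRKACB, PRKAR1A and PKIG were higher with IFNγ in 6 of 6 same-number pairs, as 12.3% of tested genes were, by medians of 0.27, 0.20 and 0.15 on the log2 scale. PRKAR1B and PRKAR2A were lower in 6 of 6, as 11.3% of tested genes were, by medians of −0.07 and −0.13. Whether the doxycycline difference depends on IFNγ was tested as an interaction, in which 0 of the 8 members other than PKIA and 0.0% of tested genes were called by edgeR, with 0 of the 8 at an unadjusted p under 0.05 and 0 called by DESeq2. The interaction of PKIA is given without a test, at 0.14 (SE 0.25).

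Of the tested genes around PKIA, a transcript that overlaps it was the 1 called with doxycycline, where 4.02% of all tested genes were called lower. Of 14 annotated genes within 1 Mb of PKIA, 8 are in the count table and 4 were tested. ZC2HC1A, a zinc finger gene 60780 bases downstream, had group means of 36.7 CPM in C and 36.2 in D, and with IFNγ of 47.9 in I and 46.6 in DI, with a doxycycline average of −0.03 (SE 0.13, adjusted p = 0.923 by edgeR). IL7, a cytokine gene (−0.17, SE 0.39, adjusted p = 0.848), and the pseudogene THAP12P7 (−0.51, SE 0.29, adjusted p = 0.322) were both under 1 CPM on average. PKIA-AS1, a noncoding RNA on the minus strand (78426103 to 78558503) that overlaps the gene body of PKIA but none of its exons, had 33, 7 and 16 reads in C against 14, 2 and 3 in D. With IFNγ it had 59, 30 and 32 reads in I against 6, 4 and 5 in DI. All DI libraries lay below all I libraries, as was so for 8.41% of tested genes, while C and D overlapped. In D, 2 libraries were at or under 3 reads, the level taken as the detection floor. PKIA-AS1 too was under 1 CPM on average, at 0.941 CPM. Its doxycycline average fell by 2.42 on the log2 scale (SE 0.53, adjusted p = 0.0213 by edgeR, and 0.000767 with the block). The adjusted p was above 0.05 without C replicate 1, I replicate 1 or DI replicate 3. By edgeR it was 0.143 without replicate 1 of every group and 0.186 without replicate 3 of every group. Without the strand setting of the counting, reads of PKIA-AS1 and reads from introns of PKIA cannot be told apart.

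Genes whose log2 CPM followed PKIA most closely over the 12 libraries were named by Pearson's r among 13960 tested genes with a mean of at least 1 CPM. Since PKIA has 1 level with doxycycline and another without, a high r here mostly says that a gene has the same split and little other spread, and it is given as a description. TMBIM6, an endoplasmic reticulum membrane protein gene, had the highest r (0.985), with 331 CPM ± 6.497 (SD, n = 3) in C against 138 ± 16.9 in D, and 349 ± 12.6 in I against 147 ± 23.4 in DI. CRIPT (0.980), STK17B (0.978), the mitochondrially encoded complex I subunit gene ND6 (0.973) and ARPP19 (0.972) followed. ND6 was the 1 of these with a difference as large as that of PKIA, −2.38 on the log2 scale (SE 0.19), while CRIPT was at −0.62 (SE 0.07). The lowest values of r were those of CCAR1 (−0.982), INPP5B (−0.974), PTGFRN (−0.974), ZNF646 (−0.962) and INHBE (−0.959), which were higher with doxycycline, CCAR1 by 0.86 (SE 0.06) and INHBE, an activin subunit gene, by 4.39 (SE 0.56). Within groups, after group means were removed, r with PKIA was 0.553 for TMBIM6 and −0.188 for ARPP19. Of the family, PRKAR1A had the highest r with PKIA (0.893, position 152 of 13960), ahead of PRKAR1B (0.798) and PRKACB (0.792), and PRKAR2A the lowest (0.364).

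**Figure D4:**
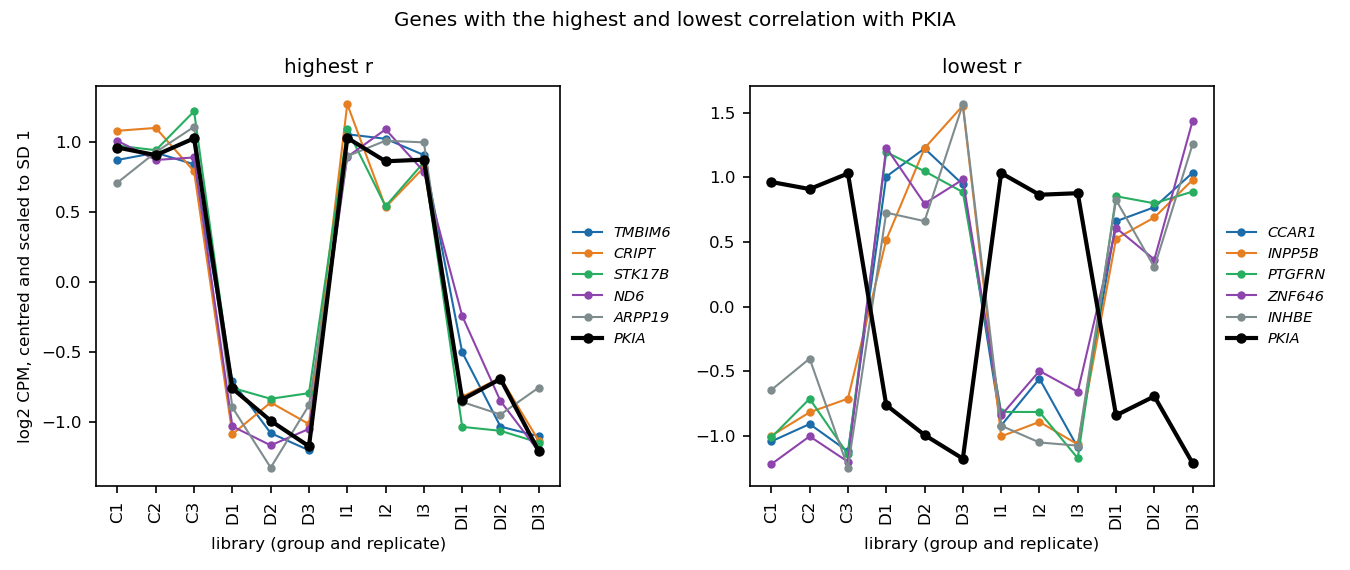
Log2 CPM of PKIA (black) and of the 5 genes with the highest (left) and lowest (right) Pearson's r with it, each centred and scaled to an SD of 1, over the 12 libraries. TMBIM6 (r = 0.985) is low in the same 6 libraries as PKIA and CCAR1 (r = −0.982) is high in them.

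Around the kinase, 109 genes of the cyclic AMP pathway were listed by role from general knowledge. Of these 87 were tested, 21 were too low to be tested and 1 is not analysed here. In the doxycycline average 2 were called higher and 6 lower by edgeR, where 7.68% of all tested genes were called in either direction. With the block 11 were higher and 13 lower, where 13.3% of all tested genes were called higher and 15.8% lower. The median log2 fold change of the list was −0.02. In I vs C and DI vs D 0 were called by edgeR, with 10 and 5 of 87 at an unadjusted p under 0.05, as 8.0% and 6.24% of all tested genes were. DESeq2 called 1 in I vs C, where it called 2.9% of all genes it tested, and the block called 5 and 2, and 6.02% and 4.46% of all tested genes. On the receptor side, 1 of 6 tested Gs-coupled receptor genes and 1 of 7 G protein alpha subunit genes were called lower, where 4.02% of all tested genes were. GNAI2, the alpha subunit of an inhibitory G protein that lowers adenylyl cyclase activity, had 80.7, 79.4 and 96.0 CPM in C against 57.2, 54.3 and 57.7 in D. With IFNγ the values were 88.5, 82.2 and 102.8 in I against 62.6, 61.1 and 62.0 in DI. No library with doxycycline reached the lowest without it, as was so in this direction for 3.09% of all tested genes. GNAI2 fell by 0.58 on the log2 scale (SE 0.08, adjusted p = 0.00179), and its edgeR adjusted p was 0.114 without replicate 1 of every group. The adenosine receptor gene ADORA2A was the receptor called, at −2.48 (SE 0.67, adjusted p = 0.0489), with a mean of 0.911 CPM, below the minimum of 1 CPM set for naming genes, and it is named here after its values were seen. Without DI replicate 2 its adjusted p was 0.0114, and without any other single library it was above 0.05, up to 0.1243 without C replicate 1, with log2 fold changes from −3.42 to −1.99. Of the 7 adenylyl cyclase and 14 phosphodiesterase genes tested, 0 were called by edgeR in the doxycycline average. There 0 and 1 had an unadjusted p under 0.05, as 3710 of all 15828 tested genes had, and 1 and 4 were called with the block.

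Downstream, 2 of 12 tested A-kinase anchoring protein genes were called lower in the doxycycline average, where 4.02% of all tested genes were called lower. AKAP11, which tethers PKA and the kinase GSK3B, had 126, 135 and 119 CPM in C against 98.8, 82.0 and 77.1 in D. With IFNγ the values were 138, 139 and 134 in I against 86.7, 88.6 and 73.7 in DI. It fell by 0.64 on the log2 scale (SE 0.08, adjusted p = 0.00141), and its edgeR adjusted p was 0.0551 without replicate 1 of every group. AKAP1, which anchors PKA at the outer mitochondrial membrane, fell by 0.30 (SE 0.06, adjusted p = 0.0129). The edgeR adjusted p of AKAP1 was 0.267 without replicate 1 of every group and 0.134 without replicate 3 of every group. ARPP19, a small phosphoprotein and PKA substrate that inhibits protein phosphatase PP2A, was 1 of 3 tested phosphatase inhibitor genes called. It had 415, 442 and 466 CPM in C against 259.7, 229 and 261 in D. With IFNγ the values were 439, 453 and 451 in I against 263, 256 and 271 in DI, so the groups were far apart in both arms. ARPP19 fell by 0.79 on the log2 scale (SE 0.06, adjusted p = 9.26e-05), and its call held in all 20 alternatives tried.

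At the end of the pathway stand CREB, its coactivators and its target genes. For the counts that follow, 3.66% of all tested genes were called higher in the doxycycline average and 4.02% lower. CREBBP, the acetyltransferase that binds phosphorylated CREB, rose by 0.45 on the log2 scale (SE 0.10, adjusted p = 0.0247) and was the 1 of 8 tested genes of the CREB family and coactivators to be called, with D libraries at 215, 173 and 155 CPM against 115, 139.8 and 103 in C, and DI libraries at 173, 149.9 and 172 against 131, 144 and 127 in I. Its adjusted p was above 0.05 without C replicate 1 or 3, D replicate 1, I replicate 1 or 3, or DI replicate 1 or 3. Of 20 tested CREB target genes 1 was called higher and 1 lower, and the list had a median of 0.02. VGF, which encodes a precursor of neuropeptides, rose by 0.78 (SE 0.13, adjusted p = 0.00805), from 17.0, 13.0 and 14.4 CPM in C to 36.4, 28.9 and 35.0 in D, and had 20.1, 26.4 and 18.9 CPM in I and 35.1, 27.4 and 23.2 in DI, where the groups overlapped. The edgeR adjusted p of VGF was 0.183 without replicate 1 of every group and 0.0837 without replicate 3 of every group. TH, the rate-limiting enzyme of catecholamine synthesis, fell by 3.82 (SE 0.94, adjusted p = 0.0349). Its libraries had 47.3, 3.13 and 74.7 CPM in C against 1.33, 7.04 and 0.695 in D. With IFNγ the values were 21.5, 2.18 and 59.0 CPM in I against 1.90, 3.08 and 0.766 in DI, so in replicate 2 the libraries with doxycycline were the higher ones and the decrease rests on replicates 1 and 3. Without replicate 3 of every group the log2 fold change of TH was −2.41 (adjusted p = 0.303), and leaving out single libraries gave adjusted p-values up to 0.0895.

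**Figure D5:**
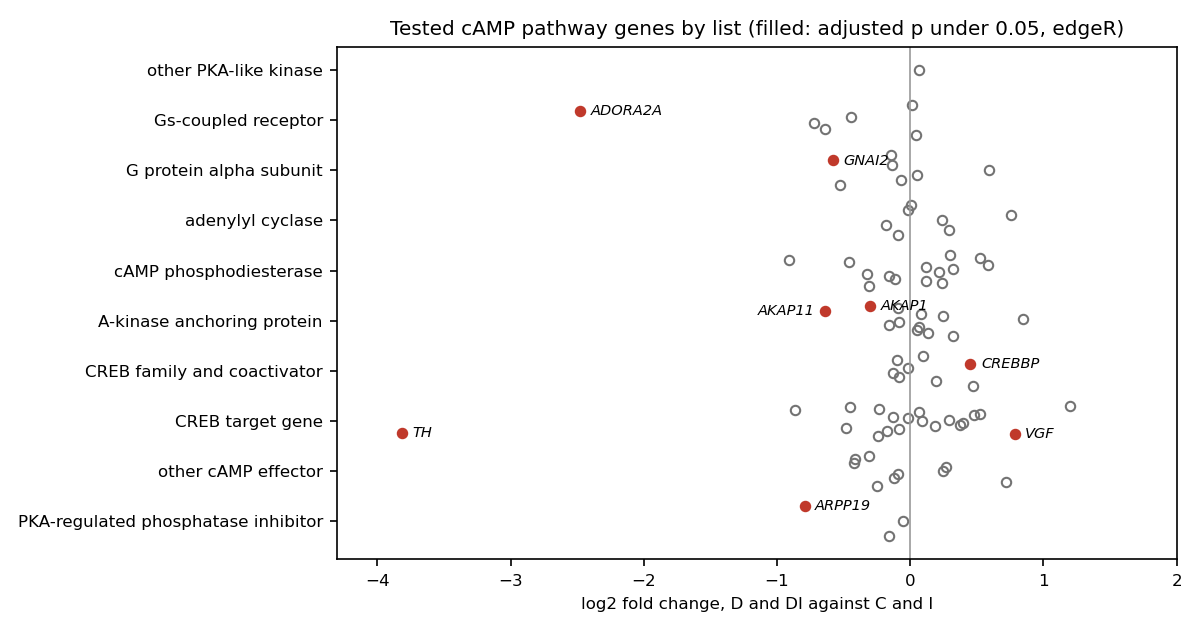
Log2 fold change in the doxycycline average of the 87 tested cyclic AMP pathway genes by list, 1 point a gene, filled and named where the edgeR adjusted p was under 0.05. The 8 named genes are 6 on the lower and 2 on the higher side, and most points lie within 1 of 0.

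With the replicate block the genes called in I vs C were VIP, PDE4D, AKAP6 and SCG2, all higher with IFNγ, and SST, which was lower. They are named after their values were seen. In the model without the block their log2 fold changes were 2.25, 1.11, 0.60, 0.47 and −1.28, in that order. VIP had 0.187 CPM in C replicate 3, at the detection floor of 3 reads. PDE4D, a phosphodiesterase gene, had 19.7, 14.1 and 17.2 CPM in C and 41.1, 36.5 and 32.8 in I, with no overlap, as for 8.84% of tested genes in the higher direction. In DI vs D, where it was not called, it had 26.8, 46.4 and 20.1 CPM in DI against 14.6, 24.0 and 9.61 in D. SCG2, a secretogranin gene and CREB target, was the 1 gene called with the block in both IFNγ comparisons. The other in DI vs D was CREB1, at 0.29 in the model without the block. None of these passed edgeR's test of all 12 libraries without the block, where the adjusted p of PDE4D in I vs C was 0.224. Other fits without the block did call pathway genes. DESeq2 called 1 in I vs C, and edgeR with only the groups compared called 1 in I vs C and 1 in DI vs D.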

How the data were processed

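Total RNA of 12 SK-N-DZ libraries was sequenced on an Illumina NovaSeq instrument. The counts are whole numbers of reads per gene, made and deposited by the authors before any scaling, for 43769 genes, all found in GENCODE release 29 (GRCh38). The aligner, the counting tool and its strand setting are not given in the sources used here. The authors also deposited tables of their own comparisons, with fold changes and p-values, which were not used, and neither were the 18 per-library columns in them. The submitters' processing notes name DESeq2.

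Groups came from the sample labels. Low genes were removed by filterByExpr of edgeR at a minimum count of 10, library sizes were scaled by TMM, giving CPM (counts scaled to a fixed library total), and 15828 genes were tested two-sided in one quasi-likelihood model of 4 group means over 12 libraries (edgeR 4.0.16, limma 3.58.1, R 4.3.3). A gene was called at a Benjamini-Hochberg adjusted p under 0.05 over all tested genes. Contrasts were D vs C, DI vs I, their average, I vs C, DI vs D and the interaction. Summaries were made in Python 3.11.15. The code was tested on simulated counts. Replicates of a group differed by more than counting noise (chi-square per gene 19 to 84.5). The deviations from the group means correlated at 0.338 to 0.804 in the 18 pairs of libraries that share a replicate number, and at −0.628 to 0.143 in the 36 pairs that do not, so the numbers pair the libraries, and values with the number as a block stand beside the results they change. Reads carry no molecular identifiers, so errors cover counting and replicate spread only.

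The members, the pathway and marker lists and the tests were chosen with earlier results of these data known. Genes named are the 9 members, ARID1A, IRF1, up to 3 genes in each direction per pathway list and comparison among those called with a mean of at least 1 CPM, the tested genes within 1 Mb of PKIA, and the 5 genes most and the 5 least like PKIA, apart from those said to be named after their values were seen. For a symbol with more than 1 row the row with more counts was read. As alternatives, DESeq2 1.42.0 was run as the tool and as the source of size factors, library size alone was used for scaling, no filter was set, the block was added, the model was limited to the groups compared, the threshold was 0.01, another gene length was taken, and each library was left out in turn. Fits without one replicate number in all groups were chosen after seeing the data.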

Additional observations from a re-analysis of the deposited data

How the results depend on the processing

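The decrease of PKIA with doxycycline kept its direction under every alternative tried, with the doxycycline average between −2.49 and −2.23. PKIA was chosen for a stable decrease in these same libraries, so this stability follows from the choice and is a description. Depth did not limit PKIA, but it limits PKIB and PKIA-AS1, which had few reads. Counts of called genes depended on how the replicate number was treated, and the cause was not tested unless named. With the replicate block, the count of called family members rose from 1 to 5 in D vs C, from 1 to 4 in DI vs I and from 3 to 7 in the doxycycline average, each with PKIA included, and that of pathway genes from 4 to 13, from 3 to 8 and from 8 to 24, with 5 in I vs C and 2 in DI vs D in place of 0. Calls rose over all tested genes too. The share called lower went from 0.733% to 7.67%, from 0.569% to 6.62% and from 4.02% to 15.8%. The share called higher in the doxycycline average went from 3.66% to 13.3%. The share called in either direction went from 2.21% to 6.02% in I vs C and from 1.72% to 4.46% in DI vs D. DESeq2 called 2 members in each single arm, and of the pathway genes 7 in D vs C, 13 in the doxycycline average and 1 in I vs C, where it called 4.75%, 12.7% and 2.9% of the genes it tested. With only the libraries of the groups compared, which leaves fewer samples, 0 members were called in DI vs I, and the pathway genes called were 0 in D vs C, 0 in DI vs I, 1 in I vs C and 1 in DI vs D. At an adjusted p under 0.01 the pathway genes called were 1 in D vs C, 1 in DI vs I and 4 in the doxycycline average. Without replicate 1 of every group, 0 members were called in either single arm and 1 in the doxycycline average (PKIA), and pathway genes numbered 0, 0 and 1 in D vs C, DI vs I and their average. Without replicate 2 of every group pathway genes numbered 2, 0 and 16, with 1 in I vs C, and without replicate 3 of every group they numbered 0, 0 and 3.

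Leaving out single libraries gave 2 to 4 members in the doxycycline average, and pathway genes from 1 to 4 in D vs C, 1 to 3 in DI vs I, 5 to 9 in the doxycycline average and 0 to 1 in I vs C. The regulatory to catalytic difference was −0.197 with group means and −0.197 within same-number pairs (replicate block), where the SD falls from 0.229 within groups to 0.105 between pairs. With the longest annotated transcript as gene length 3 members kept their position in the order of levels.

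Changes of sign concerned values that did not pass the test or, for PKIA, were given without one. They were widest for PKIB, which was −0.735 in DI vs I with all libraries and 0.0384 without I replicate 3. With library size alone PRKAR2A was 0.0422 in D vs C and 0.0182 in the doxycycline average, and with only the groups compared PRKAR2B was 0.000465 in DI vs D. Without replicate 1 of every group PKIB was 0.103 in I vs C, PRKACA 0.0576 in DI vs D and PRKAR2B 0.0305 in DI vs D. Without replicate 2 of every group PKIA was −0.0680 and PRKAR2B 6.36e-05 in DI vs D, and without replicate 3 of every group PKIA was 0.00927 and PRKAR2B 0.00118 in I vs C. With single libraries left out, DI vs D ran from −0.0629 to 0.2499 for PKIA, −0.353 to 0.8995 for PKIB, −0.0598 to 0.0345 for PRKACA, −0.2475 to 0.0614 for PRKAR1B and −0.203 to 0.167 for PRKAR2B. I vs C ran from −0.127 to −0.0116 for PKIA, −0.786 to 0.591 for PKIB, −0.175 to 0.0161 for PRKACA, −0.169 to 0.0574 for PRKAR1B and −0.3635 to 0.196 for PRKAR2B. DI vs I ran from −1.28 to 0.0384 for PKIB and −0.165 to 0.00541 for PRKACA, and D vs C from −0.1105 to 0.0357 for PRKAR2A.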
